A study of Mus musculus with 48 samples.

Results

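The 3 TAO kinase genes, Taok2, Taok1 and Taok3, and 4 kinase genes of the p38 and JNK branches that TAO kinases feed into, Map2k3, Map2k6, Mapk8 and Mapk14, were followed in 3 brain regions (cortex, striatum, cerebellum) of 7qF3 deletion mice and wild-type mice. They are 7 of the 47069 gene rows of the count table and were chosen by symbol: Taok2 lies in the deleted interval, and the other 6 lie outside it. The deletion animals carried the 16p11.2 Deletion genotype of the labels, a deletion in mouse band 7qF3, which corresponds to human 16p11.2, and the controls were wild type. Both groups had the mixed C57BL/6N:129Sv background, and each held 8 animals, 4 males and 4 females. Every animal gave 1 library from each of the 3 regions, so the 6 groups had 8 libraries each and 48 libraries in all. The labels do not give the zygosity of the deletion, and their age field holds a date and no age. Males carry one date and females another, so any effect of date is confounded with sex. P-values of deletion against wild type measure the spread between these animals. The tests between regions, in the fits reported, took the 3 libraries of an animal as independent.

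TAO kinases are Ste20-group protein kinases that act as MAP kinase kinase kinases. They phosphorylate MAP kinase kinases such as MAP2K3 and MAP2K6, which in turn activate p38 kinases such as MAPK14, and they also act on the JNK branch, to which MAPK8 belongs. Taok2 is known in cortical neurons for its part in dendrite and axon formation downstream of the guidance receptor neuropilin 1, and Taok1 is known for its link to microtubules and to Hippo signalling. The comparison of deletion with wild type asks how far Taok2 falls with the deletion, and whether its paralogues or the kinases below it differ in level at the same time.

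The libraries held 29244745 to 60751792 gene counts (median 32232112). Members had between 129 and 9965 counts in a library, and all 7 passed the filter on low counts in each comparison. Cortex and cerebellum markers had their highest median in their own region, and striatum markers did not separate striatum from cortex: the summed level of 10 striatum markers was 408 to 7280 CPM (counts scaled by library size) in deletion striatum and 314 to 4292 CPM in wild-type striatum, while cortex libraries reached 3989 CPM (deletion) and 2549 CPM (wild type). The median sum was 2002 CPM in deletion and 1111 CPM in wild-type cortex, and 1509 and 1114 CPM in striatum. The striatum marker signal was thus unevenly spread between the genotypes in cortex too, and this difference was not tested. In 3 striatal libraries, 1 deletion and 2 wild type, the sum did not exceed the highest cerebellar library, at 516 CPM. None of the striatum markers was at 0 in any group. The summed cerebellum markers were 1035 to 5658 CPM in deletion cerebellum and 2798 to 7279 CPM in wild-type cerebellum, and 33.2 to 128 CPM in the other regions. Results that rest on striatum are therefore given below also without those 3 libraries or with marker levels in the model, where this changes them.

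Each member is a separate transcription unit, and only Taok2 is on chromosome 7. Coordinates are those of GRCm38. Taok2 (ENSMUSG00000059981) spans chr7:126865678-126884703 on the minus strand, with 9316 bp of annotated exon. No annotated gene overlaps it, and its nearest neighbours are Hirip3, 301 bp away, and Tmem219, 1468 bp away on the other side. Taok1 (ENSMUSG00000017291) spans chr11:77529162-77607815 on the minus strand and has 12421 bp of exon, of which 94 bp are shared with Abhd15 on the opposite strand. Taok3 (ENSMUSG00000061288) spans chr5:117120129-117275219 on the plus strand with 11159 bp of exon. Map2k3 (ENSMUSG00000018932, chr11:60932033-60952811) and Map2k6 (ENSMUSG00000020623, chr11:110399122-110525522) lie on the plus strand, with 3314 and 3444 bp of exon. Mapk8 (ENSMUSG00000021936) lies at chr14:33377898-33447158 on the minus strand, with 11444 bp of exon. Mapk14 (ENSMUSG00000053436) lies at chr17:28691329-28748406 on the plus strand, with 4376 bp of exon.

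The promoters of the TAO kinases are shown because Taok2 lies inside the deletion and its paralogues outside it. Each is a window of 300 bases around a gene start in RefSeq, in GRCm38.p6, read 5′ to 3′ on the gene's own strand: chr7:126884918-126885217 for Taok2 (minus strand), chr11:77607766-77608065 for Taok1 (minus strand) and chr5:117119879-117120178 for Taok3 (plus strand). The Taok1 and Taok3 windows hold the start of the gene span given above, whereas the Taok2 window lies wholly upstream of its span, so the RefSeq start of Taok2 is not the GENCODE one. Capitals mark every match, on either strand, to 4 short motifs: the TATA box TATAAA, the CCAAT box CCAAT, the GC box GGGCGG, or the cyclic AMP element TGACGTCA.
Taok2: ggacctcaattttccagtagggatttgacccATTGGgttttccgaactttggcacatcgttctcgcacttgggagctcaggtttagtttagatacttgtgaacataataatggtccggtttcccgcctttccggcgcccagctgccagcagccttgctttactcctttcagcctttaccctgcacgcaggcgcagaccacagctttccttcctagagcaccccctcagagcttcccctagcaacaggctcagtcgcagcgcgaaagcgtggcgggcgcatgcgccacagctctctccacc
Taok1: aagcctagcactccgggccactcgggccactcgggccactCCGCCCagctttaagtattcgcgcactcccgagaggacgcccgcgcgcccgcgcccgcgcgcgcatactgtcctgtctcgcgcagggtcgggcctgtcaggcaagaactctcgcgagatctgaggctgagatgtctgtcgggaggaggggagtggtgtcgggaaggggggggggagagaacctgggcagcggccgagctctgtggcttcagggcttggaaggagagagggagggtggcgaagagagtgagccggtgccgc
Taok3: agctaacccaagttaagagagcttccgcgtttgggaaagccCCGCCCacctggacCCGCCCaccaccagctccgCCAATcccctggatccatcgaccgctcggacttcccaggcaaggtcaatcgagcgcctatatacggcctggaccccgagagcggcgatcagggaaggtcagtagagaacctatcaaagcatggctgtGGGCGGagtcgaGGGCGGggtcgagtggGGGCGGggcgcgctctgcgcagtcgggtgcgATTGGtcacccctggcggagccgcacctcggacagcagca
The Taok2 window held 1 CCAAT match and no match to the other motifs, 16 CpG dinucleotides and 56.0% G and C. The Taok1 window held 1 GGGCGG match, 29 CpG and 68.3% G and C, and the Taok3 window held 5 GGGCGG and 2 CCAAT matches, 27 CpG and 65.3% G and C. No motif was shared by all 3 windows. Over all 32544 RefSeq promoter windows of this length, 37.4% held CCAAT, 35.9% GGGCGG, 13.6% TATAAA and 1.8% TGACGTCA, and the medians were 7 CpG and 53% G and C. These matches are a description of the letters and not of bound sites.

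Taok2 was lower in deletion animals in every region, at 47.99 to 51.6% of the wild-type level. In cortex it was at 74.6 CPM in the lowest, 75.7 in the median and 84.98 in the highest deletion library, against 141, 151 and 160 CPM in wild-type libraries. In striatum the deletion libraries were at 76.5, 83.3 and 84.9 CPM, against 156, 161 and 188 CPM in wild-type libraries. In cerebellum they were at 61.9, 72.4 and 77.1 CPM, against 129, 144 and 179 CPM. All 8 deletion libraries lay below all 8 wild-type libraries in each region, so the groups did not overlap. The share of all genes whose groups separate in this way was not counted. In whole-tissue RNA, fewer cells that make a transcript and less of it per cell cannot be told apart.

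**Figure D1:**
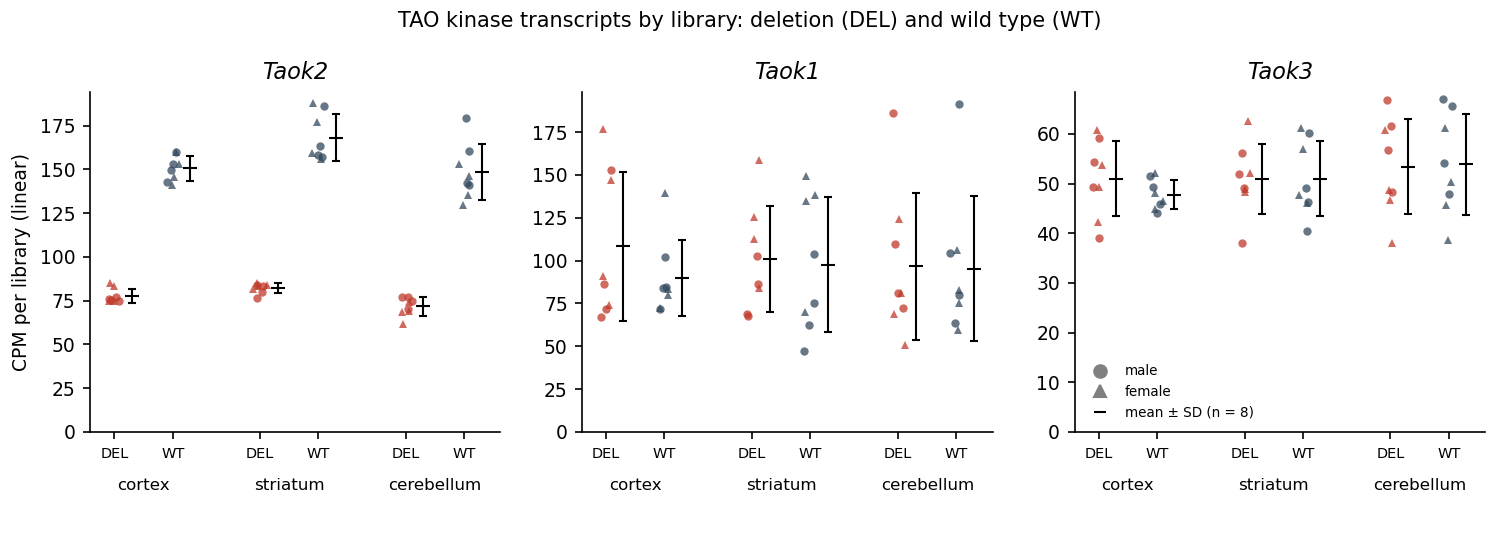
Level of Taok2, Taok1 and Taok3 in each of the 48 libraries, in CPM on a linear axis, for deletion (DEL, red) and wild-type (WT, dark blue) animals in 3 regions; circles are males, triangles females, and bars give mean ± SD (n = 8). Taok2 separates the genotypes in every region, with the highest deletion library of cortex at 84.98 CPM and the lowest wild-type library at 141 CPM, while Taok1 and Taok3 overlap.

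The log2 fold change of Taok2, deletion over wild type, was -0.96 ± 0.06 in cortex (SE; 95% interval -1.07 to -0.84; edgeR quasi-likelihood test, Benjamini-Hochberg adjusted p = 2.07e-07). It was -1.04 ± 0.07 in striatum (-1.19 to -0.90; edgeR adjusted p = 4.48e-07) and -1.06 ± 0.07 in cerebellum (-1.21 to -0.90; edgeR adjusted p = 7.76e-07). The intervals correspond to 47.5 to 56.0% of the wild-type level in cortex, 43.97 to 53.6% in striatum and 43.1 to 53.4% in cerebellum, and each holds a log2 fold change of -1. With striatum and thalamus marker levels in the model (in cerebellum, choroid plexus markers), the log2 fold change of Taok2 was -0.97 in cortex, -1.03 in striatum and -1.04 in cerebellum. Without the 3 striatal libraries of low marker level it was -1.02 ± 0.07 in striatum (edgeR adjusted p = 1.96e-05). Taok2 was the only member called, 1 of 7 lower and 0 higher in each region. The genes called higher over the table were 0.0119, 0.0116 and 0.012% of those tested in cortex, striatum and cerebellum. Of all genes tested, 0.119% were called lower in cortex, 0.116% in striatum and 0.126% in cerebellum. Most of those are genes of the interval itself, where 15 of 20, 16 of 21 and 16 of 22 tested genes were called lower.

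Averaged over the 3 regions of an animal, Taok2 had a log2 fold change of -1.01 ± 0.05 (95% interval -1.12 to -0.90; limma, adjusted p = 1.15e-08), 49.7% of wild type, where 0.146% of 18531 genes were called lower and 0.0162% higher. Relative to the wild-type mean of each region, single deletion animals stood at 46.7 to 52.0% with a mean of 49.6 ± 1.73% (SD, n = 8). Wild-type animals stood at 91.8 to 108% with an SD of 6.13%. The lowest animal, a female deletion mouse, was also the lowest in cerebellum, at 41.7% of the wild-type mean. Leaving out each animal in turn kept the cerebellar log2 fold change of Taok2 between -1.08 and -1.02. Taok2 had the smallest SE of all tested interval genes in each region. The median of the other interval genes was -1.08 in cortex, -1.03 in striatum and -1.02 in cerebellum.

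Its 2 neighbours, one on each side, were lower as well. Hirip3, which encodes a partner of the histone chaperone HIRA, averaged 18.4 ± 3.41 CPM in deletion and 39.7 ± 3.43 CPM in wild-type cortex (SD, n = 8; log2 fold change -1.11 ± 0.11, edgeR adjusted p = 6.74e-05). Tmem219, a membrane protein gene, averaged 8.10 ± 2.23 CPM in deletion and 17.2 ± 3.22 CPM in wild-type cortex (-1.09 ± 0.17, edgeR adjusted p = 0.00780).

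Within each sex the size of the Taok2 effect was close to that of all animals, with 4 animals per group. In cortex the log2 fold change was -0.98 ± 0.09 in males and -0.92 ± 0.10 in females, and both were called (edgeR adjusted p = 0.0231 and 0.0360). In striatum it was -1.06 ± 0.12 in males (adjusted p = 0.0360) and -1.03 ± 0.11 in females, where it was not called (edgeR adjusted p = 0.0644). In cerebellum it was -1.07 ± 0.12 in males and -1.05 ± 0.12 in females, and neither was called (edgeR adjusted p = 0.0531 and 0.0529). Over the 3 regions both sexes were called, at -1.03 ± 0.08 and -0.99 ± 0.09 (limma adjusted p = 0.00749 and 0.0143).

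Taok1, the more abundant of both paralogues per kilobase of exon, did not pass the test in any region and differed widely between libraries of the same group. In cortex it was at 66.9, 88.6 and 177 CPM in the lowest, median and highest deletion library, against 71.8, 83.6 and 139 CPM in wild-type libraries. In striatum it was at 67.8, 94.6 and 159 CPM in deletion libraries, against 47.0, 89.8 and 149 CPM. In cerebellum it was at 50.6, 81.1 and 186 CPM in deletion libraries, against 59.6, 81.4 and 191 CPM in wild-type libraries. The groups overlapped in all regions, and the highest library exceeded the lowest of its own group by 1.94-fold to 3.67-fold, where Taok2 spanned 1.11-fold to 1.39-fold. The log2 fold change of Taok1 was 0.26 ± 0.21 in cortex (95% interval -0.19 to 0.71), 0.06 ± 0.19 in striatum (-0.35 to 0.46) and 0.01 ± 0.25 in cerebellum (-0.53 to 0.55), with edgeR adjusted p of 0.965, 1 and 1. Over the 3 regions it was 0.10 ± 0.19, and the interval, -0.29 to 0.50, leaves room for 81.8 to 141% of the wild-type level (limma adjusted p = 1).

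Taok3, the paralogue of lowest level, was measured more tightly and did not pass the test either. In cortex it was at 39.1, 51.6 and 60.78 CPM in the lowest, median and highest deletion library, against 44.1, 47.3 and 52.1 CPM in wild-type libraries. In striatum it was at 38.1, 50.5 and 62.6 CPM in deletion libraries, against 40.5, 48.3 and 61.1 CPM. In cerebellum it was at 37.9, 52.7 and 66.8 CPM in deletion libraries, against 38.6, 52.3 and 67.0 CPM in wild-type libraries. In cortex 4 deletion libraries lay above all wild-type libraries and 2 below all of them, and in the other regions the ranges nearly coincided. Its log2 fold change was 0.09 ± 0.09 in cortex, -0.01 ± 0.10 in striatum and -0.02 ± 0.12 in cerebellum. Over the 3 regions it was 0.02 ± 0.08, with a 95% interval of -0.14 to 0.19, or 90.5 to 114% of wild type (limma adjusted p = 1).

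**Figure D2:**
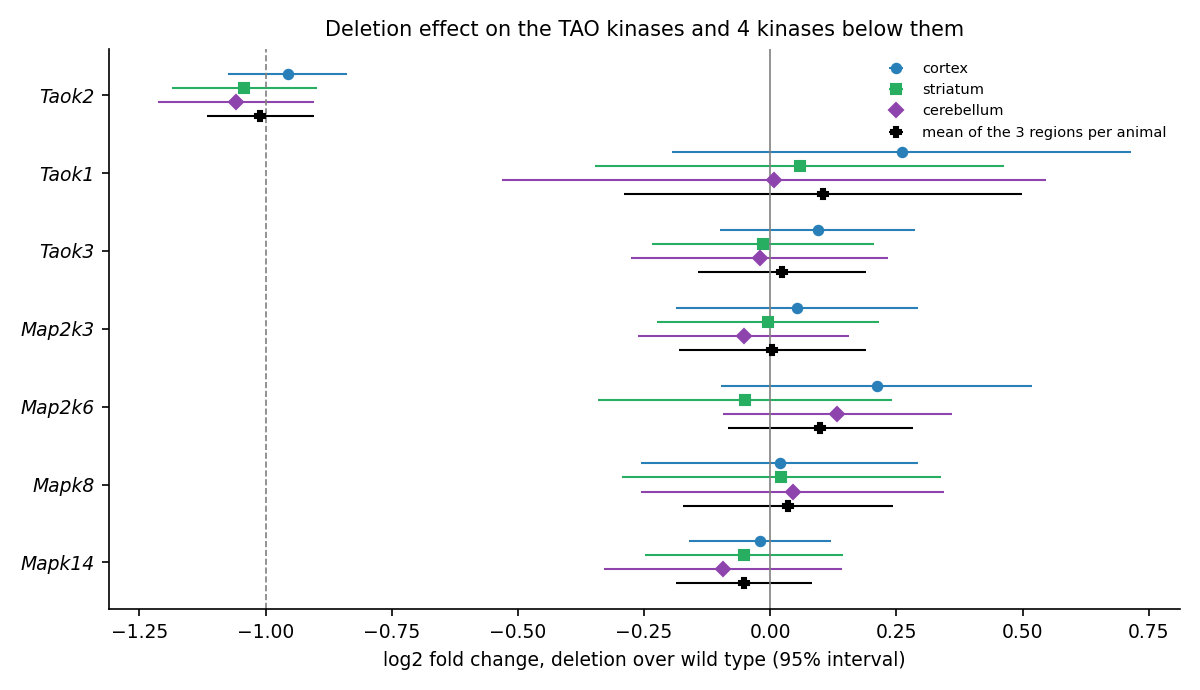
Log2 fold change of the 7 members, deletion over wild type, with 95% intervals, in each region (edgeR) and for the mean of the 3 regions of an animal (limma); the dashed line marks -1 and the solid line 0. Taok2 lies at -0.96 to -1.06 with intervals that hold -1, and the intervals of the other 6 members hold 0.

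Per kilobase of annotated exon, a rough allowance for transcript length, Taok2 was the most abundant of the 3 TAO kinases in wild-type tissue. The summed level of the 3 genes was 21.6 ± 4.42 CPM per kb in deletion cortex and 27.7 ± 2.39 CPM per kb in wild-type cortex (SD, n = 8). In striatum the sum was 21.5 ± 3.0 CPM per kb in deletion and 30.5 ± 4.49 CPM per kb in wild-type animals, and it was 20.3 ± 4.45 CPM per kb in deletion and 28.4 ± 5.42 CPM per kb in wild-type cerebellum. Taok2 made up 39.6 ± 6.15% of that sum in deletion and 58.7 ± 3.53% in wild-type cortex, with no overlap between the groups (31.7 to 46.3% against 50.9 to 62.5%). In striatum its share was 41.6 ± 4.47% for deletion and 59.9 ± 6.06% for wild-type libraries, again without overlap (32.8 to 46.5% against 52.5 to 67.5%). In cerebellum it was 39.1 ± 6.25% for deletion and 56.9 ± 5.70% for wild-type libraries, and there the groups overlapped (28.3 to 47.1% against 44.8 to 62.7%). Taok1 and Taok3 together were at 13.3 ± 4.07 CPM per kb in deletion and 11.5 ± 1.98 CPM per kb in wild-type cortex, and differed by less in the other regions. Because Taok2 is part of the sum, a lower Taok2 level by itself lowers both the sum and the share. The separation of the shares is thus not a result apart from that of Taok2, and no test is given for it.

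**Figure D3:**
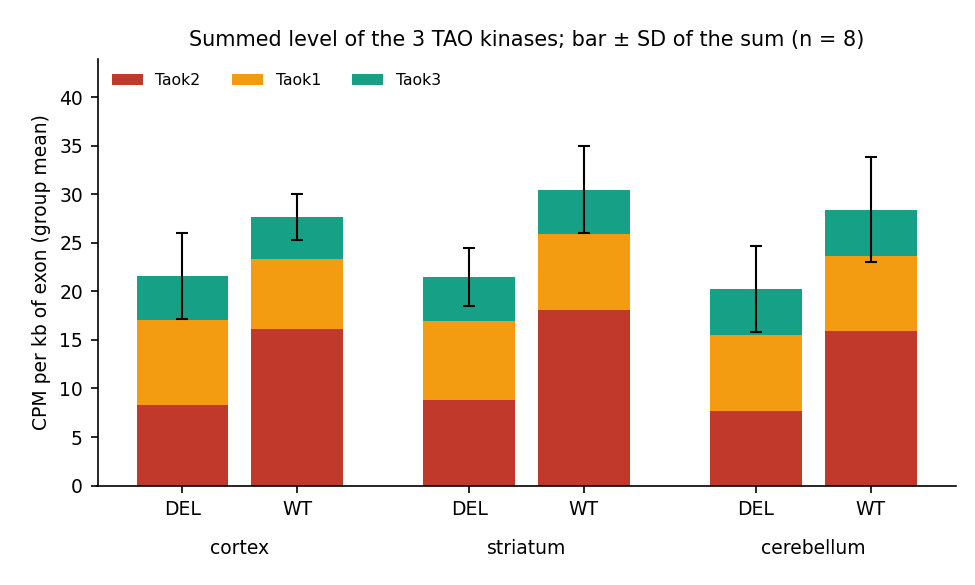
Mean level of Taok2, Taok1 and Taok3 stacked in CPM per kb of exon, for deletion (DEL) and wild-type (WT) groups in 3 regions; the error bar is the SD of the summed level (n = 8). The Taok2 part of the bar is 8.33 CPM per kb in deletion and 16.2 CPM per kb in wild-type cortex, and the Taok1 part 8.72 CPM per kb in deletion and 7.22 CPM per kb in wild-type cortex.

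Map2k3 and Map2k6, which encode the MAP kinase kinases that TAO kinases phosphorylate, did not pass the test in any region. Map2k3 was at 16.1, 20.1 and 27.1 CPM in the lowest, median and highest deletion library of cortex, against 15.6, 19.7 and 25.2 CPM in wild-type libraries. Its log2 fold change was 0.05 ± 0.11 in cortex, 0.00 ± 0.10 in striatum and -0.05 ± 0.10 in cerebellum, and 0.00 ± 0.09 over the 3 regions (95% interval -0.18 to 0.19). Map2k6 was at 6.59, 8.66 and 10.7 CPM in deletion cortex, against 5.14, 7.70 and 9.52 CPM in wild-type cortex. In 6 of 8 deletion animals the cortical Map2k6 level was above the wild-type mean, and the groups overlapped. In cerebellum Map2k6 was at 8.35, 12.005 and 12.7 CPM in deletion libraries, against 7.14, 9.65 and 14.2 CPM. Its log2 fold change was 0.21 ± 0.15 in cortex, -0.05 ± 0.14 in striatum and 0.13 ± 0.11 in cerebellum, and 0.10 ± 0.09 over the 3 regions (-0.08 to 0.28), or 94.4 to 122% of wild type. In males alone the cortical value of Map2k6 was -0.02 ± 0.20. The male minus female difference of its effect in cortex was -0.48 ± 0.27 (edgeR unadjusted p = 0.0982). The adjusted p was 0.965 in cortex for both genes by edgeR and 1 over the 3 regions by limma.

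Mapk8, a JNK kinase, and Mapk14, a p38 kinase, were also without a called change. Mapk8 was at 69.5, 107 and 138 CPM in the lowest, median and highest deletion library of cortex, against 91.8, 101 and 123 CPM in wild-type libraries. Here 3 deletion libraries lay below and 3 above all wild-type libraries, while the medians were close. The log2 fold change of Mapk8 was 0.02 ± 0.13 in cortex, 0.02 ± 0.15 in striatum and 0.04 ± 0.14 in cerebellum, and 0.03 ± 0.10 over the 3 regions (95% interval -0.17 to 0.24). Mapk14 was at 121, 133 and 145 CPM in deletion cortex, against 122, 133 and 157 CPM in wild-type cortex. In cerebellum it was at 84.3, 138 and 150 CPM in deletion libraries, against 107, 144 and 159 CPM. The lowest of these came from the same female deletion mouse that had the lowest Taok2, and was the only deletion cerebellum below the wild-type range. The log2 fold change of Mapk14 was -0.02 ± 0.07 in cortex, -0.05 ± 0.09 in striatum and -0.09 ± 0.11 in cerebellum, and -0.05 ± 0.06 over the 3 regions (-0.19 to 0.08), or 87.9 to 106% of wild type, the narrowest interval among the members outside the deletion. All adjusted p for both genes were at least 0.969 in edgeR and 1 in limma.

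**Figure D4:**
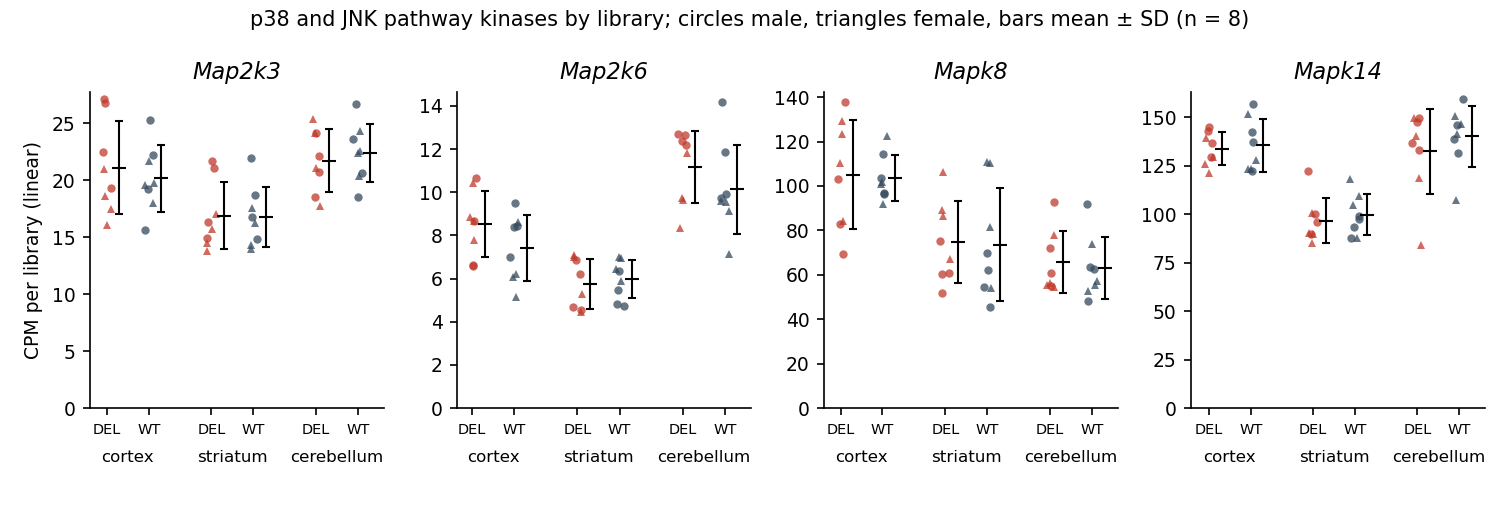
Level of Map2k3, Map2k6, Mapk8 and Mapk14 in each library, in CPM on a linear axis, for deletion (DEL, red) and wild-type (WT, dark blue) animals in 3 regions; circles are males, triangles females, bars mean ± SD (n = 8). The groups overlap for each gene in every region, and the levels of Map2k6 and Mapk14 in striatum are on average below those in cerebellum.

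The deletion effect on Taok2 was not found to differ between regions. It was more negative by 0.09 ± 0.08 on the log2 scale in cerebellum than in cortex (95% interval of the difference -0.26 to 0.07), by 0.08 ± 0.08 in striatum than in cortex (-0.24 to 0.09), and by 0.02 ± 0.08 in cerebellum than in striatum (-0.18 to 0.15). The same interaction test in edgeR called none of the 7 members and none of 18531 genes (0% of the genes, adjusted p = 1 for each member), with 0 members at an unadjusted p under 0.05 in any of the 3 tests. Of all genes, 234, 343 and 313 genes were below that unadjusted p (cerebellum against cortex, striatum against cortex, cerebellum against striatum). These 3 tests held no term for the animal, although its 3 libraries are paired. Males and females were not found to differ in the effect on Taok2 either: the male minus female difference was -0.07 ± 0.11 in cortex, -0.02 ± 0.14 in striatum and -0.02 ± 0.15 in cerebellum. None of the members was called in these tests by edgeR or DESeq2 and none was below an unadjusted p of 0.05. Over the whole table edgeR called 0 genes (0%) in each region, with 257, 189 and 93 genes below an unadjusted p of 0.05, while DESeq2 called 1 gene in cortex.

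The spread of Taok1 went with a property of the libraries. Each library was given a length score, the slope of its log2 CPM deviations from the region mean on log2 exon length over 15049 genes, so that a positive score means relatively more counts on long transcripts. The members are among those genes. Because the score is made from the same counts, genes of long exon tend to rise with it. The p-values below test against no relation at all, and r was not computed for other genes of like length, so they do not set a member apart from such genes. With the group mean subtracted from both, Taok1 rose with that score in cortex (Pearson r = 0.975, Spearman rho = 0.941, n = 16 libraries), striatum (0.944 and 0.935) and cerebellum (0.971 and 0.888), each with a permutation p of 1e-05, the smallest that 100000 permutations can give. After the 2 libraries farthest from the median score were left out, r was 0.967, 0.925 and 0.937. Mapk8, also long in annotated exon, gave r = 0.867 in cortex, 0.814 in striatum and 0.940 in cerebellum (permutation p of 1e-05, 1.2e-04 and 1e-05). Taok2 gave r = 0.623, 0.690 and 0.703 in the same order (permutation p of 0.010, 0.0032 and 0.0021, rho = 0.515, 0.653 and 0.779), over a much smaller range of levels. Taok3 gave r = 0.797 in cortex, 0.486 in striatum and 0.787 in cerebellum (permutation p of 1.1e-04, 0.058 and 1.9e-04). Map2k3, with short exons, went the other way, at -0.652, -0.853 and -0.775 (permutation p of 0.0063, 5e-05 and 5.5e-04). Mapk14 showed no such relation (r = -0.283, -0.00242 and 0.326, permutation p of 0.29, 0.99 and 0.22). Map2k6 gave r = 0.230 in cortex, 0.618 in striatum and 0.718 in cerebellum (permutation p of 0.39, 0.012 and 0.0014), although its exons are as short as those of Map2k3. These were 21 relations, and after Benjamini-Hochberg adjustment over them the Pearson p was 4.2e-05 and the Spearman p 7e-05 for Taok1 in each region. For Taok2 the adjusted Pearson p was 0.014, 0.0052 and 0.0037 and the adjusted Spearman p 0.059, 0.015 and 0.0012 in cortex, striatum and cerebellum, with r = 0.508, 0.611 and 0.693 after the 2 farthest libraries were left out, so the rank relation in cortex did not pass 0.05.

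**Figure D5:**
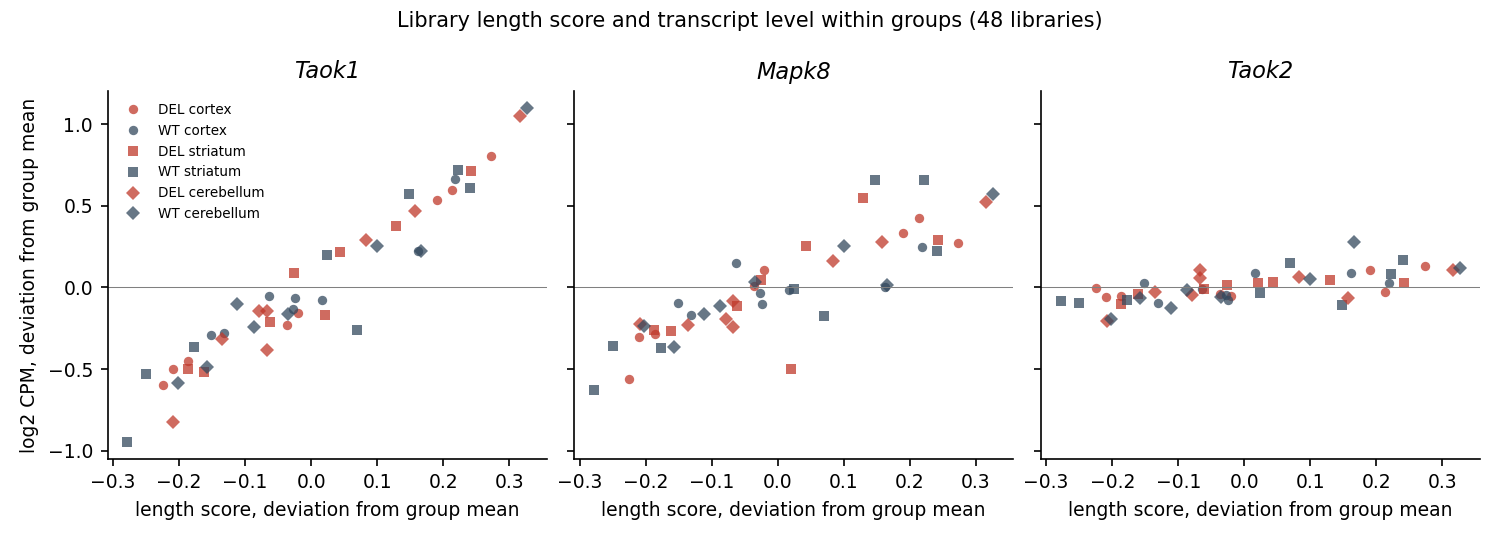
Deviation of log2 CPM from the group mean for Taok1, Mapk8 and Taok2 against the deviation of the library's length score from its group mean, for 48 libraries (red deletion, dark blue wild type; circles cortex, squares striatum, diamonds cerebellum). Taok1 rises steeply along the score in both genotypes, with r between 0.944 and 0.975 per region, and Taok2 varies little.

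In cortex the length score averaged 0.0311 ± 0.203 over deletion libraries and -0.0312 ± 0.131 over wild-type libraries (SD, n = 8). It averaged -0.0135 ± 0.143 in deletion and 0.0135 ± 0.209 in wild-type striatum, and -0.00467 ± 0.173 in deletion and 0.00469 ± 0.182 in wild-type cerebellum. Its part in the Taok1 levels was not tested beyond this covariate. With the score of the animal as a covariate, the difference over the 3 regions had a smaller error: Taok2 was at -1.01 ± 0.03 (limma adjusted p = 1.17e-12), Taok1 at 0.08 ± 0.04 (adjusted p = 0.402), Taok3 at 0.02 ± 0.05 (0.919) and Mapk8 at 0.02 ± 0.04 (0.840). The SE of Taok1 was thus 0.04 with the score and 0.19 without it, and the gene was still not called. In cortex the Taok1 difference was 0.04 ± 0.05 with the score and 0.26 ± 0.21 without it. This covariate was chosen after the spread of Taok1 had been seen. Members that rise with the score also rise with each other: over the 48 libraries, deviations from group means correlated at r = 0.895 for Taok1 and Mapk8, 0.679 for Taok2 and Taok3, and -0.731 for Taok1 and Map2k3. These pairs share libraries and their length score, and are given as a description.

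Other genes of the pathway did not pass the test. Of 123 further genes in 8 lists, edgeR tested 122 in each region and called 0, and DESeq2 called 0 as well. Over all genes tested, edgeR called 0.13, 0.128 and 0.138% in cortex, striatum and cerebellum. At such low shares, 0 calls among 122 genes do not set the lists apart from other genes. At an unadjusted p under 0.05 there were 0 higher and 2 lower in cortex, 1 higher and 3 lower in striatum and 0 in cerebellum, where 2.03, 3.32 and 2.08% of all genes tested were below that p. The lists held 15 other MAP kinase kinase kinases of the p38 and JNK branches, 7 other p38 and JNK kinases and their MAP kinase kinases, 19 effectors, 12 scaffolds, 15 MAP kinase phosphatases, 20 other Ste20-group kinases, 11 Hippo kinases and effectors and 24 cytoskeletal and guidance partners. Over the 3 regions the median log2 fold change of the 123 genes was 0.013, and that of all genes was 0.0057. By region it was 0.056 in cortex (75 of 122 genes positive), -0.035 in striatum (44 positive) and -0.018 in cerebellum (54 positive). The medians of all genes were 0.0038, -0.0060 and -0.0050 in the same order. These shifts were not tested.

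The gene of smallest p in each list, over the genes of the list and the 3 regions, is given with its values in that region. Map3k21, a mixed-lineage kinase, was at 1.63, 2.42 and 3.19 CPM in the lowest, median and highest deletion library of striatum, against 1.81, 2.86 and 4.78 CPM in wild-type libraries (log2 fold change -0.34 ± 0.18; edgeR unadjusted p = 0.0838). Mapk13, another p38 kinase, was at 0.0971, 0.230 and 0.424 CPM in deletion striatum, against 0.129, 0.368 and 0.681 CPM (-0.78 ± 0.37; edgeR unadjusted p = 0.0490). Mapkapk5, a kinase activated by p38, was at 0.731, 1.20 and 1.68 CPM in deletion cerebellum, against 1.20, 1.495 and 1.95 CPM (-0.36 ± 0.19; edgeR unadjusted p = 0.0777). The groups overlapped for all 3 genes. Ccm2, a p38 scaffold, was at 41.2, 70.5 and 120 CPM in deletion striatum, against 38.3, 49.98 and 78.3 CPM (0.37 ± 0.16; edgeR unadjusted p = 0.0315). Dusp2, a MAP kinase phosphatase, was at 0.550, 1.16 and 1.57 CPM in deletion cortex, against 1.01, 1.56 and 2.16 CPM (-0.44 ± 0.20; edgeR unadjusted p = 0.0464). Pak3, a kinase of the same Ste20 group as the TAO kinases, was at 17.2, 30.0 and 62.6 CPM in deletion cerebellum, against 15.2, 24.4 and 34.3 CPM (0.53 ± 0.29; edgeR unadjusted p = 0.0908). These differences did not survive adjustment over the genes tested. Stk38, a kinase of the Hippo pathway family, was at 50.9, 55.3 and 61.0 CPM in deletion cortex, against 53.7, 60.1 and 66.8 CPM (-0.13 ± 0.06; edgeR unadjusted p = 0.0375). Nrp1, the guidance receptor upstream of Taok2, was at 24.4, 40.5 and 55.9 CPM in deletion striatum, against 32.4, 49.7 and 70.3 CPM (-0.35 ± 0.16; edgeR unadjusted p = 0.0435). The adjusted p was 0.965 in cortex and 1 in striatum and cerebellum for these genes in edgeR.

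For 6 of these 8 genes at least 1 other region had an estimate of the opposite sign, and none of the values in the other regions passed the test. Nrp1 was at a log2 fold change of 0.13 ± 0.27 in cortex and 0.42 ± 0.25 in cerebellum, opposite to striatum. Mapk13 was at 0.42 ± 0.39 in cerebellum, where it was far more abundant (median 7.53 CPM in deletion and 6.51 CPM in wild-type libraries), and at -0.43 ± 0.37 in cortex. Map3k21 was at 0.29 ± 0.20 in cerebellum, with medians of 2.63 CPM in deletion and 1.57 CPM in wild-type libraries, and at -0.17 ± 0.15 in cortex. These 3 genes thus had estimates of both signs across regions. Dusp2 was at 0.22 ± 0.20 in striatum and -0.24 ± 0.22 in cerebellum. Mapkapk5 was at 0.14 ± 0.14 in striatum and -0.01 ± 0.14 in cortex, and Stk38 at 0.03 ± 0.06 in striatum and -0.02 ± 0.07 in cerebellum. Ccm2 and Pak3 alone were positive in all 3 regions, Ccm2 at 0.21 ± 0.18 in cortex and 0.15 ± 0.15 in cerebellum, and Pak3 at 0.27 ± 0.19 in cortex and 0.07 ± 0.21 in striatum.

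In wild-type animals the members had much the same order in every region when set per kilobase of exon: Mapk14 was highest, Taok2 next, Taok3 next to last and Map2k6 lowest. In wild-type cortex Mapk14 averaged 31.0 ± 3.12 CPM per kb, Taok2 16.2 ± 0.782, Mapk8 9.05 ± 0.894, Taok1 7.22 ± 1.78, Map2k3 6.08 ± 0.878, Taok3 4.28 ± 0.267 and Map2k6 2.16 ± 0.446 CPM per kb (SD, n = 8). Mapk14 and Taok2 did not overlap each other in cortex and cerebellum, and in striatum they did, at 20.02 to 27.01 and 16.7 to 20.2 CPM per kb. Taok2 stood above the Mapk8, Taok1 and Map2k3 ranges in cortex and striatum, whereas in cerebellum the highest Taok1 library, at 15.4 CPM per kb, reached into the Taok2 range of 13.9 to 19.2. Mapk8, Taok1 and Map2k3 changed places between regions, and neighbours among them in the order overlapped in every region. Taok3 did not overlap Map2k3 in cortex (at most 4.67 against at least 4.70 CPM per kb) and did overlap the gene above it in the other regions. Map2k6 lay below the Taok3 range in cortex and striatum and overlapped it in cerebellum. These levels depend on the annotated exon lengths.

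Between wild-type regions, 7 of the 8 calls among the members were of the 4 kinases below the TAO kinases, and 1 was of Taok2. Mapk8 averaged 63.1 ± 14.0 CPM in cerebellum and 104 ± 10.2 CPM in cortex (-0.72 ± 0.17 on the log2 scale; edgeR adjusted p = 9.29e-04). Mapk14 averaged 140 ± 15.6 CPM in cerebellum and 99.7 ± 10.6 CPM in striatum (0.48 ± 0.08; edgeR adjusted p = 5.3e-05). It averaged 99.7 ± 10.6 CPM in striatum and 136 ± 13.7 CPM in cortex (-0.44 ± 0.08; edgeR adjusted p = 8.17e-04). Map2k6 was highest in cerebellum, at 10.1 ± 2.07 CPM, against 5.96 ± 0.880 CPM in striatum (0.74 ± 0.14; edgeR adjusted p = 1.59e-04) and 7.42 ± 1.54 CPM in cortex (0.44 ± 0.14; edgeR adjusted p = 0.0126). Map2k3 averaged 22.4 ± 2.54 CPM in cerebellum and 16.8 ± 2.64 CPM in striatum (0.41 ± 0.10; edgeR adjusted p = 0.00232). Mapk8 was also called lower in striatum, at 73.6 ± 25.3 CPM, than in cortex (-0.50 ± 0.17; edgeR adjusted p = 0.0356). Taok2 averaged 148 ± 15.8 CPM in cerebellum and 168 ± 13.5 CPM in striatum (-0.19 ± 0.07; edgeR adjusted p = 0.0267). Taok1 and Taok3 were not called between any 2 regions.

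These calls stand against a large background. Members called were 2 of 7 between cerebellum and cortex, 2 of 7 between striatum and cortex and 4 of 7 between cerebellum and striatum, where 48.9, 18.6 and 48% of all 17633 genes tested were called. In the same order, 24.2, 9.95 and 22.4% of the genes were called higher and 24.7, 8.67 and 25.5% lower. The calls of Mapk8 between cerebellum and cortex and of Mapk14 between cerebellum and striatum held in each alternative run. Within single sexes, with 4 animals per region, the others lost their call in 1 sex or both: Map2k6 between cerebellum and cortex had edgeR adjusted p = 0.0769 in males and 0.0827 in females, with log2 fold changes of 0.45 ± 0.18 and 0.47 ± 0.19 against 0.44 in all animals, Map2k6 between cerebellum and striatum 0.0786 in females (0.45 ± 0.19), Map2k3 between cerebellum and striatum 0.226 in males (0.30 ± 0.18), and Mapk14 between striatum and cortex 0.279 in females (-0.32 ± 0.14). Over the whole table, the comparison of striatum with cortex called 1 gene in females and 1894 in males, with the same number of animals. A lost call in females there is thus not particular to a member. Mapk8 between striatum and cortex was at -0.22 ± 0.21 in females (edgeR adjusted p = 0.572) and at -0.41 ± 0.18 (adjusted p = 0.121) without the 3 striatal libraries of low marker level, of which 2 are wild type. Taok2 between cerebellum and striatum was at -0.19 in all animals, at -0.10 ± 0.12 in males (edgeR adjusted p = 0.560), at -0.25 ± 0.10 in females (0.0719) and at -0.18 ± 0.08 without those striatal libraries (0.0592), so that only the value in males was smaller by more than 1.5 times. With no filter on low counts the edgeR adjusted p was 0.163 for that Taok2 difference (-0.16 ± 0.08) and 0.0592 for Mapk8 between striatum and cortex (-0.51 ± 0.17). With the animal as a block, Taok2 was called higher in striatum than in cortex as well (0.16 ± 0.06; edgeR adjusted p = 0.0482, against 0.111 without the block), and Map2k3 lower (-0.26 ± 0.07; adjusted p = 0.0138, against 0.0807 without the block).

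The genes whose levels ran most like those of the TAO kinases over the 24 wild-type libraries were picked by Pearson r of log2 CPM among 15065 genes. For Taok2 these included Prrc2a (r = 0.941), Xpo6 (0.9), Gpr135 (0.893) and Bcl9 (0.893). For Taok1 they were Pum2 (0.978), Trim33 (0.977) and Pikfyve (0.974), and for Taok3 Smarcc2 (0.907), Brd3 (0.905) and Prdm11 (0.894). After the mean of each region was subtracted, the nearest genes were Atg2a (0.940), Usp19 (0.935), Nup188 (0.922), Zswim8 (0.921) and Phrf1 (0.921) for Taok2. They were Ttc14 (0.990), Med13 (0.985) and Zc3h12b (0.985) for Taok1, and Brd3 (0.927), Khnyn (0.923) and Snrk (0.912) for Taok3. Of the genes named here, Brd3 was the only one that stayed on a list after the region means were removed. The libraries come from 8 animals and share a length score, and these values describe likeness only.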

How the data were processed

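The 48 libraries from 16 mice were made by a TruSeq protocol that keeps strand (per the labels). The authors deposited whole-number read counts per Ensembl gene, not normalised. The submitters' processing notes list STAR 2.4.2a, SAMtools, Picard and FastQC 0.10.1, and the builds GRCm38 and mm8 are named with no role. How reads were counted, with which annotation and whether by strand, is not given in the sources used here, so reads of overlapping or antisense genes could be shared. Of 47161 rows, 92 were ERCC spike-ins, which name no gene, took 0.0614 to 1.09% of a library's counts and were left out. Of the 47069 genes, 46488 matched GENCODE vM21 (GRCm38) by identifier, which gave symbols, positions and exon lengths, and 581 kept their identifier. No 2 libraries of the same group were alike within sampling noise (lowest chi-square per degree of freedom 17.9 over 168 replicate pairs). Libraries of different groups were not compared in this way. 

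Deletion and wild type were compared within each region by edgeR's quasi-likelihood test (TMM scaling, filter on low counts by genotype, sex and genotype in the model, robust), and over the 3 regions by limma on the mean log2 CPM of an animal (prior count 2). Regions were compared in 24 wild-type libraries, and effects between regions or sexes by interaction terms. The fits reported between regions held sex and no animal term, and a fit with the animal as a block was an alternative. P-values were 2-sided and adjusted by the Benjamini-Hochberg method over all genes tested, with calls under 0.05. The SE in edgeR is the absolute log2 fold change over the square root of the F statistic, and CPM levels use TMM factors over all 48 libraries. The edgeR test of genotype, and limma on single libraries, were checked on counts simulated from the cortex libraries with known changes. The simulated libraries were independent and had 1 spread for all genes, unlike the wide spread of Taok1. The limma test on the mean of an animal over the 3 regions was not checked in this way. Neither were the interaction, region and DESeq2 tests. The members and lists were chosen with earlier results of these data known. Named are all members, the neighbours of Taok2, the called genes of each list or, where none was called, its gene of smallest p, and the genes most like the TAO kinases in level, of which 1 is not reported here. Animal numbers in the labels pair libraries across regions: the same animal had a median correlation of 0.439 between cortex and striatum, 0.495 between cortex and cerebellum and 0.257 between striatum and cerebellum, against -0.0712, -0.0136 and -0.0478 for other animals. Alternatives were other scalings, filters and tests (DESeq2), marker, sex and length score terms, single sexes, an animal block and leaving out each animal. Versions were edgeR 4.0.16, DESeq2 1.42.0 and limma 3.58.1 under R 4.3.3, and scipy 1.17.1 under Python 3.11.15.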

Additional observations from a re-analysis of the deposited data

Results flagged for a closer look

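Single libraries stood apart in 3 of the 42 combinations of member and group, by a gap to the nearest library above 0.526 of the group's range; chance alone flags about 1 in 20 groups. Taok1 was at 139.2 CPM in the cortex of a female wild-type animal, with a gap of 0.548 of the range. Taok1 was at 191.3 CPM in the cerebellum of a male wild-type animal, with a gap of 0.645. Both libraries had the highest length score of their group, 0.1874 and 0.3312. Mapk14 was at 122.1 CPM in the striatum of a male deletion animal, with a gap of 0.584. Leaving out the animal in question changed no deletion call of Taok1 or Mapk14.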

How the results depend on the processing

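Taok2 was called lower in deletion animals in every alternative run except within single sexes of striatum (females) and cerebellum (both), and its log2 fold change stayed between -0.98 and -0.92 in cortex, -1.06 and -1.01 in striatum, -1.08 and -1.02 in cerebellum and -1.03 and -0.99 over the 3 regions. No other member was called in a deletion comparison under any alternative. Leaving out 1 animal at a time kept 1 member called in each region and over the 3 regions, with 18 to 24 genes called in cortex, 16 to 22 in striatum, 20 to 23 in cerebellum and 24 to 30 over the regions. Members near 0 changed sign in these fits: in cortex Map2k3 (-0.011 to 0.092), Mapk8 (-0.070 to 0.086) and Mapk14 (-0.048 to 0.012), in striatum Taok1 (-0.016 to 0.16), Taok3 (-0.053 to 0.043), Map2k3 (-0.042 to 0.046), Map2k6 (-0.10 to 0.015) and Mapk8 (-0.047 to 0.092), in cerebellum Taok1 (-0.15 to 0.19), Taok3 (-0.080 to 0.043) and Mapk8 (-0.030 to 0.13), and over the 3 regions Taok3 (-0.0065 to 0.060), Map2k3 (-0.037 to 0.040) and Mapk8 (-0.018 to 0.079). The cause of these sign changes, and of those below, was not tested.

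Genes called for the deletion moved to 13 in cortex with marker covariates (22 in the fit reported), to 42 with DESeq2 and 36 in 1 fit of all libraries in striatum (22), and to 67 with the length score over the 3 regions (30). DESeq2 called 1 gene for a sex difference in cortex. With 4 animals per group, by construction, males alone gave 2 genes in cortex, 4 in striatum, 1 in cerebellum (0 members) and 8 over the regions, and females alone 6, 1 (0 members), 1 (0 members) and 9. Between wild-type regions, males gave 1 member between cerebellum and cortex, 1894 genes between striatum and cortex and 2 members between cerebellum and striatum. Females gave 1 member and 5561 genes, 0 members and 1 gene, and 2 members in the same comparisons. Members called between striatum and cortex were 2 in the fit reported, 1 with no filter or without the 3 low-marker striatal libraries, 4 in deletion libraries and 5 with the length score (6930 genes). With the animal as a replicate block, 4 members and 5356 genes were called between striatum and cortex (2 and 3283 without the block), and the block changed no other call of a member. Map2k3 was also called between striatum and cortex with DESeq2 (-0.27, adjusted p = 0.0412) and, in edgeR, between cerebellum and cortex with the length score (0.17, adjusted p = 0.0264). Map2k6 was called between striatum and cortex in males (-0.65, edgeR adjusted p = 0.0440).

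Signs of small log2 fold changes turned as follows. For the deletion in cortex, Mapk8 was at -0.00044 with upper-quartile scaling, -0.0089 with voom, -0.049 in males and -0.094 with the length score, Mapk14 at 0.017 with marker covariates, Map2k6 at -0.020 in males and Map2k3 at -0.12 in females. For the deletion in striatum, Map2k3 was at 0.0011 with RLE factors, 0.0012 with DESeq2, 0.020 with no filter, 0.042 with marker covariates, 0.015 in males, 0.0065 in 1 fit of all libraries and 0.0074 without the low-marker libraries. There Taok3 was at 0.010, 0.032, 0.0099 and 0.029 with no filter, marker covariates, the length score and without those libraries, Mapk8 at -0.043, -0.036 and -0.029 with marker covariates, in females and without those libraries, Mapk14 at 0.096 in males and 0.0047 without those libraries, Map2k6 at 0.046 in males and Taok1 at -0.041 in females. For the deletion in cerebellum, Taok3 was at 0.0043 with upper-quartile scaling and 0.031 with marker covariates, and Taok1 at -0.0019 with voom and -0.0056 in females. Over the 3 regions, Mapk14 was at 0.024 in males and Map2k3 at -0.057 in females. The difference of the deletion effect on Mapk8 between striatum and cortex was -0.00067 with RLE factors. Between wild-type cerebellum and cortex, Taok1 was at -0.13 in deletion libraries, -0.18 in females and -0.078 with the length score, Mapk14 at -0.0098 in deletion libraries and Taok2 at 0.034 in males. Between striatum and cortex, Taok1 was at -0.12 in deletion libraries, -0.25 in males and -0.064 with the length score, Taok3 at -0.016 in deletion libraries and Map2k6 at 0.018 in females. Between cerebellum and striatum, Taok1 was at 0.021 with no filter and 0.60 in males, Mapk8 at 0.20 in males and Taok3 at -0.095 in females. The length score, the marker split of striatal libraries, and single sexes for the wild-type regions and for the 3-region mean were chosen after seeing the data. The lowest count of a member in any library was 129.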
